A study of Mus musculus with 12 samples.

Results

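Nfia, Nfib, Nfic and Nfix encode the nuclear factor I (NFI) transcription factors, and Zic1/2 binding at these 4 genes was followed in mouse cerebellar granule neurons in culture. The genes are 4 of 21887 protein-coding genes in the reference annotation. Their members among the binding sites were all Zic1/2 peaks that overlapped the mm10 span of a gene or the 5 kb on either side. Merged over 12 libraries, these peaks formed 309 regions of 286729 in the genome. Binding was measured by CUT&RUN, in which an antibody carries a nuclease to the bound protein inside nuclei and the DNA cut out beside it is sequenced. The antibody was directed to the C terminus of Zic1/2, so the Zic1 and Zic2 proteins were not separated. Libraries came from days 1, 3, 5 and 7 in vitro (DIV1, DIV3, DIV5 and DIV7), with 3 biological replicates per day according to the series design. All cultures grew in the same medium, a Neurobasal base with calf serum and B27. Per the labels, cultures were given 1 uM cytosine arabinoside, a drug that kills dividing cells, at DIV2. The DIV1 cultures were harvested before that day, so for any difference between DIV1 and the later days the drug and the time in culture cannot be told apart. The labels used here do not state the genotype, strain or age of the animals. No RNA was measured, and the cell type was taken from the labels.

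Granule neurons express the zinc finger proteins Zic1 and Zic2 from their progenitor stage onward. NFI proteins bind DNA as dimers at a palindrome whose half-site reads TTGGC. In granule neurons they take part in axon outgrowth, migration, dendrite formation and the timing of late genes such as Gabra6, and in neural progenitors they promote the switch to glial fate. The 4 genes give proteins with a shared DNA-binding domain, and more than one of them is expressed in maturing granule neurons.

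Sequences of 3 promoter windows are printed first because they hold annotated starts that a peak covered in some libraries and not in others. One is that of Nfia, the NFI gene whose peak frequency passed the test, and the others are Nfix windows, one with NFI half-sites and one that was covered by a peak in the most libraries. They run 5′ to 3′ from 250 bases before to 50 bases after the start, from RefSeq (GRCm38.p6, the assembly of mm10), in lower case with every TTGGC match on either strand in capitals.
Nfia promoter, chr4:97581693-97581992, plus strand: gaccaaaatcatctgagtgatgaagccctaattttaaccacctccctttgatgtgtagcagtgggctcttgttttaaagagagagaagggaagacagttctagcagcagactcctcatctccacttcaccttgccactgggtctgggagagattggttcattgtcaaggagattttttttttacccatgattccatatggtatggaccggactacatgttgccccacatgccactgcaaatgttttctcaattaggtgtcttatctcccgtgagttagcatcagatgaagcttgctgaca
Nfix promoter 1, chr8:84772826-84773125, minus strand: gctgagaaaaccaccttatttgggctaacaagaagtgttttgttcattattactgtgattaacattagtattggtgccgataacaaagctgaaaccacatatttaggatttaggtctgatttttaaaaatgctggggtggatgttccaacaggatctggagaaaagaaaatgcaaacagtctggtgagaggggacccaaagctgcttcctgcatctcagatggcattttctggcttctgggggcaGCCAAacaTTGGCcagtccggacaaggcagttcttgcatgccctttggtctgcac
Nfix promoter 4, chr8:84780033-84780332, minus strand: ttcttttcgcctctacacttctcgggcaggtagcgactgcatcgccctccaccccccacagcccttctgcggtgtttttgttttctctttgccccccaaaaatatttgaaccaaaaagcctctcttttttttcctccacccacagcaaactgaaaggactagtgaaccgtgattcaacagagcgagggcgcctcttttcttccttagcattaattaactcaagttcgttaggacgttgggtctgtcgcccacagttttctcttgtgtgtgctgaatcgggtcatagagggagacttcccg

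The reference table held 6 promoter windows for 3 of the 4 genes, 1 for Nfia, 1 for Nfic and 4 for Nfix. A peak covered the Nfia promoter in all 3 DIV1 libraries, 2 DIV3 libraries, all 3 DIV5 libraries and no DIV7 library. The Nfic promoter, at chr10:81427124-81427423, had a peak in 4 of 12 libraries, 1 at DIV1, 2 at DIV3, 1 at DIV5 and none at DIV7. Nfix promoter 4 had a peak in 9 libraries, namely 3 of DIV1, 3 of DIV3, 2 of DIV5 and 1 of DIV7. Nfix promoters 1, 2 and 3 had one in 6, 1 and 8 libraries. Nfix promoters 1 and 3 overlap merged regions called in all 12 libraries, that of promoter 3 being chr8:84774429-84776896. There a library without a covering peak still had a peak elsewhere in the region. All 6 windows were thus covered in some libraries and none in all 12. Of the 32851 reference promoters, 20.48% were covered in all 12 and 47.32% in none. The 6 windows lie inside the gene spans and do not stand for the gene ends. Nfic and Nfix lie on the minus strand, so their start side is the upper-coordinate end. The merged region across that end was called in all 12 libraries at Nfic (chr10:81429138-81432082) and in 10 at Nfix (chr8:84800191-84801488). Such a call needs a peak anywhere in the region. The letters CAGCAGG, the core of the motif known for Zic factors, occurred on neither strand of any of the 6 windows, against 10.5% of all promoters. The full NFI palindrome, TTGGC followed after 5 bases of any kind by GCCAA, was also in none of the 6, against 0.0365% of all promoters. The half-site TTGGC, which every full palindrome contains, occurred on both strands within a few bases of each other in Nfix promoter 1 and once each in Nfix promoters 2 and 3, against 46.7% of all promoters with at least 1 match.

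The NFI genes were among the genes with the most Zic1/2 peaks. Peak frequency here is the number of peaks in a gene's window per 10000 peaks of the library. Averaged over the 12 libraries it was 6.60 at Nfix, 6.38 at Nfia, 3.11 at Nfic and 2.16 at Nfib, ranks 18, 21, 165 and 365 of 21887 genes, whose median was 0.215. Nfix and Nfia did not separate, since Nfix was the higher in 7 of 12 libraries. Nfia had more peaks than Nfic in 11 of 12 libraries, and Nfic had more than Nfib in 9 and as many in the other 3.

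Per length the order was different. Per 100 kb of window the frequency was 6.80 at Nfic and 6.19 at Nfix, which exceeded 99.7% and 99.6% of genes. At Nfia it was 1.16 and at Nfib 0.952, which exceeded 74.1% and 67.7% of genes, and the median gene stood at 0.554. Nfia (chr4:97578066-98118876) and Nfib (chr4:82290173-82506751) are long genes of 540811 and 216579 bases. Nfic (chr10:81396191-81431919) spans 35729 bases and Nfix (chr8:84704712-84801238) 96527 bases.

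Peaks at Nfia fell in frequency over the week, and of the 4 genes Nfia was the 1 that passed the test. At DIV1 the Nfia window held 59, 67 and 57 peaks in replicates 1, 2 and 3. At DIV3 it held 48, 49 and 63 peaks. At DIV5 it held 65, 47 and 35 peaks, and at DIV7 18, 40 and 21. The frequency was 8.44 ± 0.494 per 10000 peaks at DIV1, 7.34 ± 1.00 at DIV3, 6.16 ± 1.44 at DIV5, then 3.60 ± 1.357 at DIV7 (SD, n = 3 each). Every DIV5 and DIV7 library lay below every DIV1 library, and DIV3 overlapped both DIV1 and DIV5. The log2 frequency changed by -0.20 ± 0.0391 (SE) per day (limma across 14692 genes, adjusted p = 0.0117), and DIV7 stood 2.40-fold below DIV1 (log2 difference -1.26 ± 0.237, limma, adjusted p = 0.0153). The trend passed with any 1 library left out, and the DIV7 call was lost without DIV1 replicate 1, DIV1 replicate 3 or DIV7 replicate 1 (limma, adjusted p 0.0502 to 0.072). The DIV7 difference was -0.673 with reads in peaks as a covariate (limma, adjusted p = 0.369). It was -0.696 without the 3 libraries with the fewest reads, where DIV7 replicate 2 is the 1 DIV7 library left.

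At Nfix the frequency was 8.87 ± 1.20 at DIV1, 6.66 ± 1.95 at DIV3, 5.72 ± 0.695 at DIV5, then 5.13 ± 2.06 at DIV7 (SD, n = 3 each). The libraries held 63, 63 and 65 peaks at DIV1, 57, 37 and 49 at DIV3, 55, 43 and 38 at DIV5, and 24, 58 and 31 at DIV7. DIV7 replicate 2 matched the lowest DIV1 library, both at 7.49 per 10000, while the other two DIV7 libraries lay below all libraries of DIV1 and DIV3. The day trend was -0.13 ± 0.0389 log2 per day and missed the threshold (limma, adjusted p = 0.0615). It passed without DIV3 replicate 2 (-0.144) and without DIV7 replicate 2 (-0.177, limma adjusted p = 0.0109).

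At Nfib the libraries held 16, 19 and 19 peaks at DIV1, 22, 16 and 16 at DIV3, 21, 12 and 15 at DIV5, and 5, 20 and 11 at DIV7. DIV7 replicate 2, at 2.58 per 10000, lay within the DIV1 range of 2.26 to 2.80, and the other two DIV7 libraries, at 0.768 and 1.5, lay below it. The trend was -0.13 ± 0.0515 log2 per day (limma, adjusted p = 0.188). The DIV7 difference was -0.74 ± 0.334 log2 and did not pass (limma, adjusted p = 0.245). It was -0.319 without DIV7 replicate 1 (limma, adjusted p = 0.661) and -1.13 without DIV7 replicate 2, the 1 library of 12 without which it passed (limma, adjusted p = 0.0434).

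At Nfic the libraries held 19, 34 and 27 peaks at DIV1, 22, 20 and 21 at DIV3, 21, 27 and 24 at DIV5, and 22, 20 and 18 at DIV7. The DIV1 and DIV7 frequencies overlapped, and the trend was -0.05 ± 0.0356 log2 per day (limma, adjusted p = 0.48), and 0.0193 with the 40000 strongest peaks of each library. Whether Nfia differed from the other NFI genes in its trend was not tested.

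**Figure D1:**
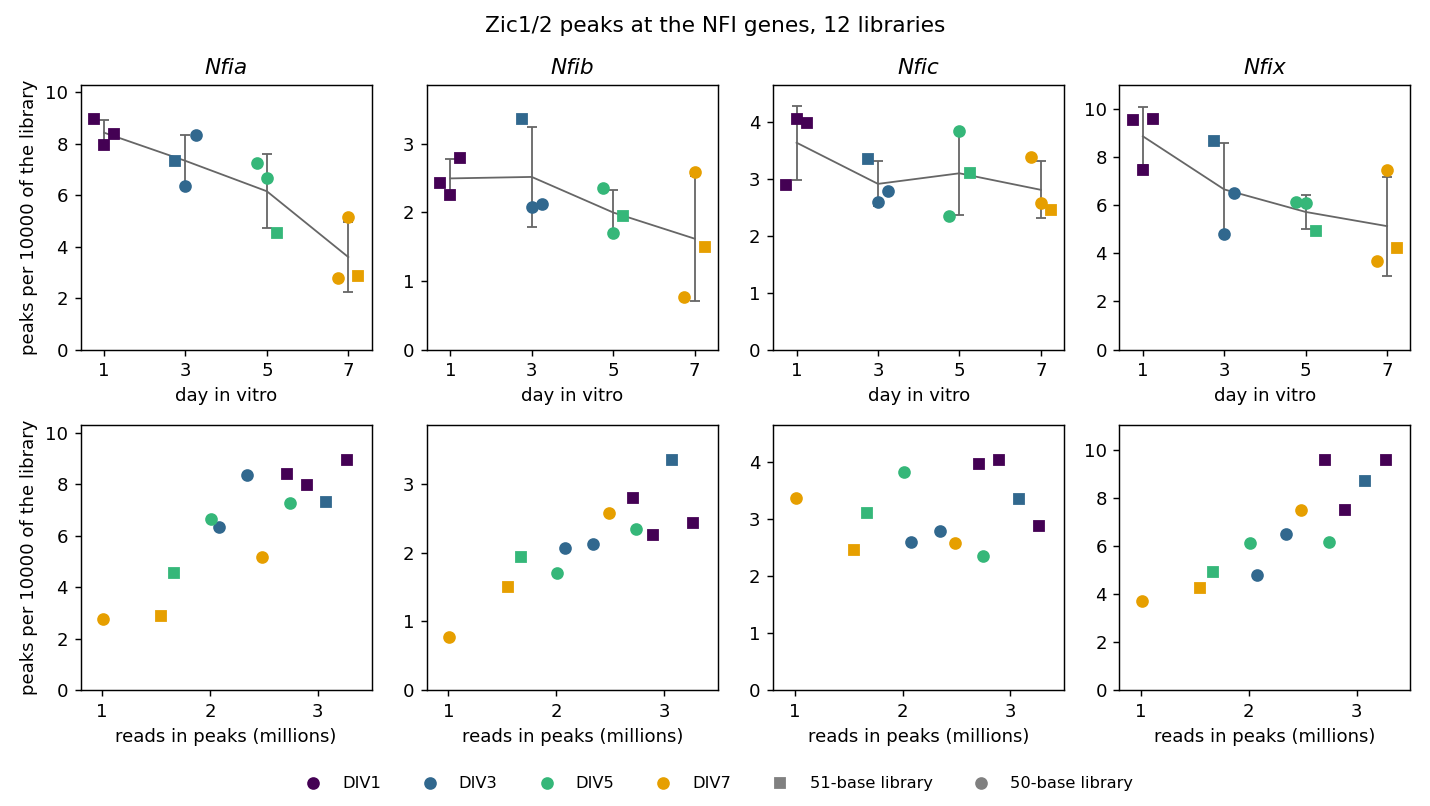
Zic1/2 peak frequency at each NFI gene (peaks per 10000 peaks of the library, vertical axes from 0), by day in vitro (top row, lines through the daily means with SD, n = 3) and by reads in peaks (bottom row, in megareads); each point is 1 library, squares are 51-base and circles 50-base libraries. Nfia goes from 8.44 at DIV1 to 3.60 at DIV7, and the libraries with the fewest reads, DIV7 replicates 1 and 3, have the lowest Nfia, Nfib and Nfix values.

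The NFI genes were read against all genes. Over the week 2.97% of the 14692 genes tested were called lower and 0.953% higher, and 1 of the 4 NFI genes was called lower. Between DIV7 and DIV1 2.56% were lower and 0.742% higher, with Nfia again the 1 NFI gene called. Between DIV3 and DIV1 0.034% were lower and 0.0545% higher, and none of the 4 was called (limma, unadjusted p 0.107 to 0.96). The median trend was -0.13 log2 per day over the 4 NFI genes and -0.00501 over all genes. A lower trend than that of Nfia was found in 4.49% of genes, than Nfix in 11.7%, than Nfib in 13.3% and than Nfic in 32.5%. Genes with many peaks leaned the same way as the NFI genes. A comparison added after the data were seen took the 365 genes with an average log2 frequency at or above that of Nfib. Of these 22.2% were called lower and 3.29% higher, and 77.3% had a negative trend, with a median of -0.0754 log2 per day.

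**Figure D2:**
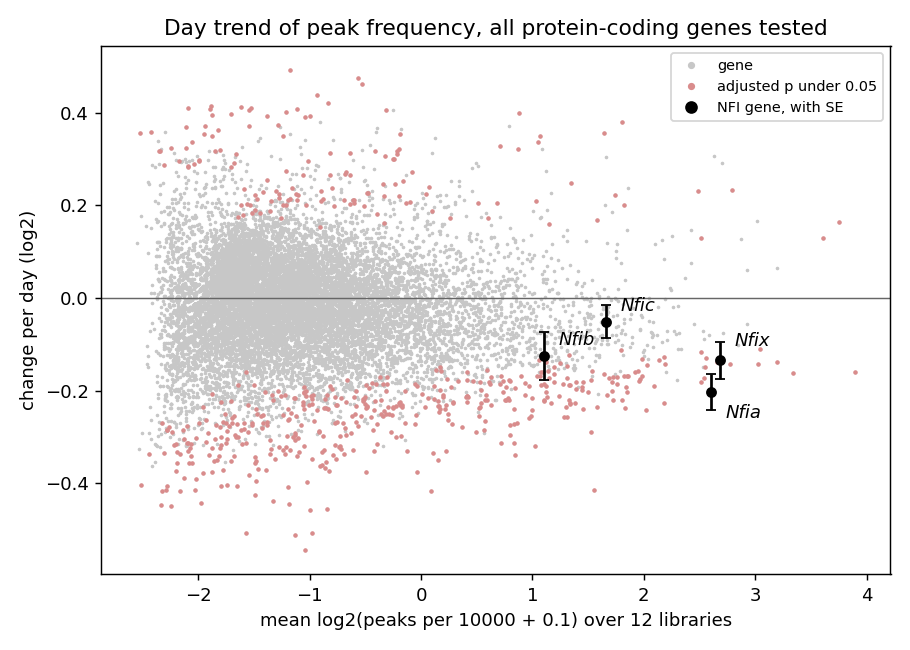
Day trend of peak frequency (log2 per day, vertical axis) against mean log2(peaks per 10000 + 0.1) over 12 libraries for all 14692 genes tested; red points have a limma adjusted p under 0.05 and black points are the NFI genes with SE. All 4 NFI genes lie at the high-frequency end with negative trends, Nfia lowest at -0.20; with depth as a covariate Nfib stands at 0.0294, and with the 40000 strongest peaks Nfic stands at 0.0193.

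Depth and day moved together in these libraries. Reads in peaks, in megareads (M), were 2.71 to 3.27 M at DIV1, 2.08 to 3.08 M for DIV3, 1.67 to 2.74 M for DIV5 and 1.01 to 2.49 M for DIV7. Peaks per library ran from 65102 to 89417 and did not follow the day. The median peak of a library held 9 to 26 reads. With depth (log2 reads in peaks) as a covariate the Nfia trend was -0.0993 log2 per day (adjusted p = 0.493), Nfix stood at -0.025 (adjusted p = 0.925), Nfib at 0.0294 (adjusted p = 0.93), and none of the 14692 genes passed (limma). Without the 3 libraries with the fewest reads, DIV7 replicates 1 and 3 and DIV5 replicate 3, the Nfia trend was -0.0973 (limma, adjusted p = 0.154), that of Nfix -0.0683 (limma, adjusted p = 0.586) and that of Nfib -0.024 (limma, adjusted p = 0.923). Among libraries of similar depth, DIV7 replicate 2 with 2.49 M reads had 5.16 Nfia peaks per 10000, below DIV3 replicates 2 and 3, which had 6.35 and 8.35 with 2.08 and 2.34 M reads. At Nfix the same DIV7 library, at 7.49, lay above those DIV3 libraries, at 4.79 and 6.50. At Nfib it also lay above them, at 2.58 against 2.07 and 2.12. These comparisons rest on 1 DIV7 library and were not tested. The libraries also fell into 51-base reads (all of DIV1, and 1 replicate of each later day) and 50-base reads. Within the 51-base libraries the Nfia trend was -0.246 log2 per day (limma, adjusted p = 0.0403), and within the 50-base libraries, which hold no DIV1 sample, it was -0.232 (limma, adjusted p = 0.546). For Nfix these values were -0.182 (limma, adjusted p = 0.0567) and -0.0211 (limma, adjusted p = 0.958). The libraries come from whole cultures, so fewer cells with a bound site and less binding per cell cannot be told apart.

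The share of reads, a second measure of the same peaks, gave Nfic another course. Of each 10000 reads in peaks, Nfia took 5.97 ± 0.493 at DIV1 and 2.53 ± 0.813 at DIV7 (SD, n = 3), with 5.76 and 4.11 between. Nfix took 9.42 ± 1.12 at DIV1, 6.42 at DIV3, 4.60 at DIV5, then 4.29 ± 2.07 at DIV7. Nfic took 5.19 ± 0.554, 3.05 ± 0.825, 2.93 ± 0.289 and 3.95 ± 1.18, with lower means at DIV3 and DIV5 than at either end of the week. Nfib took 1.90 ± 0.0518 at DIV1 and 1.53 ± 0.643 at DIV7. The lowest Nfic value at DIV1, 4.57, stood above all DIV3 and DIV5 values, the highest of which was 3.97, while DIV7 reached 5.29. These shares were not tested.

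Most NFI regions were seen once. Of the 309 regions 155 (50.2%) were called in 1 library and 20 (6.47%) in all 12, against 63.0% and 4.28% of all 286729 regions. The 4 genes differed in this. At Nfia 103 of 172 regions (59.9%) and at Nfib 30 of 51 (58.8%) were called in 1 library, while 4 and 1 were called in all 12. At Nfix 17 of 61 regions (27.9%) were called once and 9 (14.8%) in all 12. At Nfic 5 of 25 (20%) were called once and 6 (24%) in all 12. Outside the gene span lay 7 of the Nfic regions and 5 of the Nfix regions. The Nfic window also overlaps the protein-coding genes Smim24 and Gm48552, and the Nfix window Lyl1 and Trmt1.

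Regions called in at least 3 libraries ran along the whole of Nfix and Nfic and most of Nfia. At Nfib all 15 of them lay beyond 94.4 kb from the lower-coordinate end of the gene, and the 14 regions before that point were each called in at most 2 libraries. Regions called in at least 10 libraries numbered 12 at Nfia, 4 at Nfib, 9 at Nfic and 17 at Nfix, 1 for every 45.9, 56.6, 5.08 and 6.27 kb of window.

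**Figure D3:**
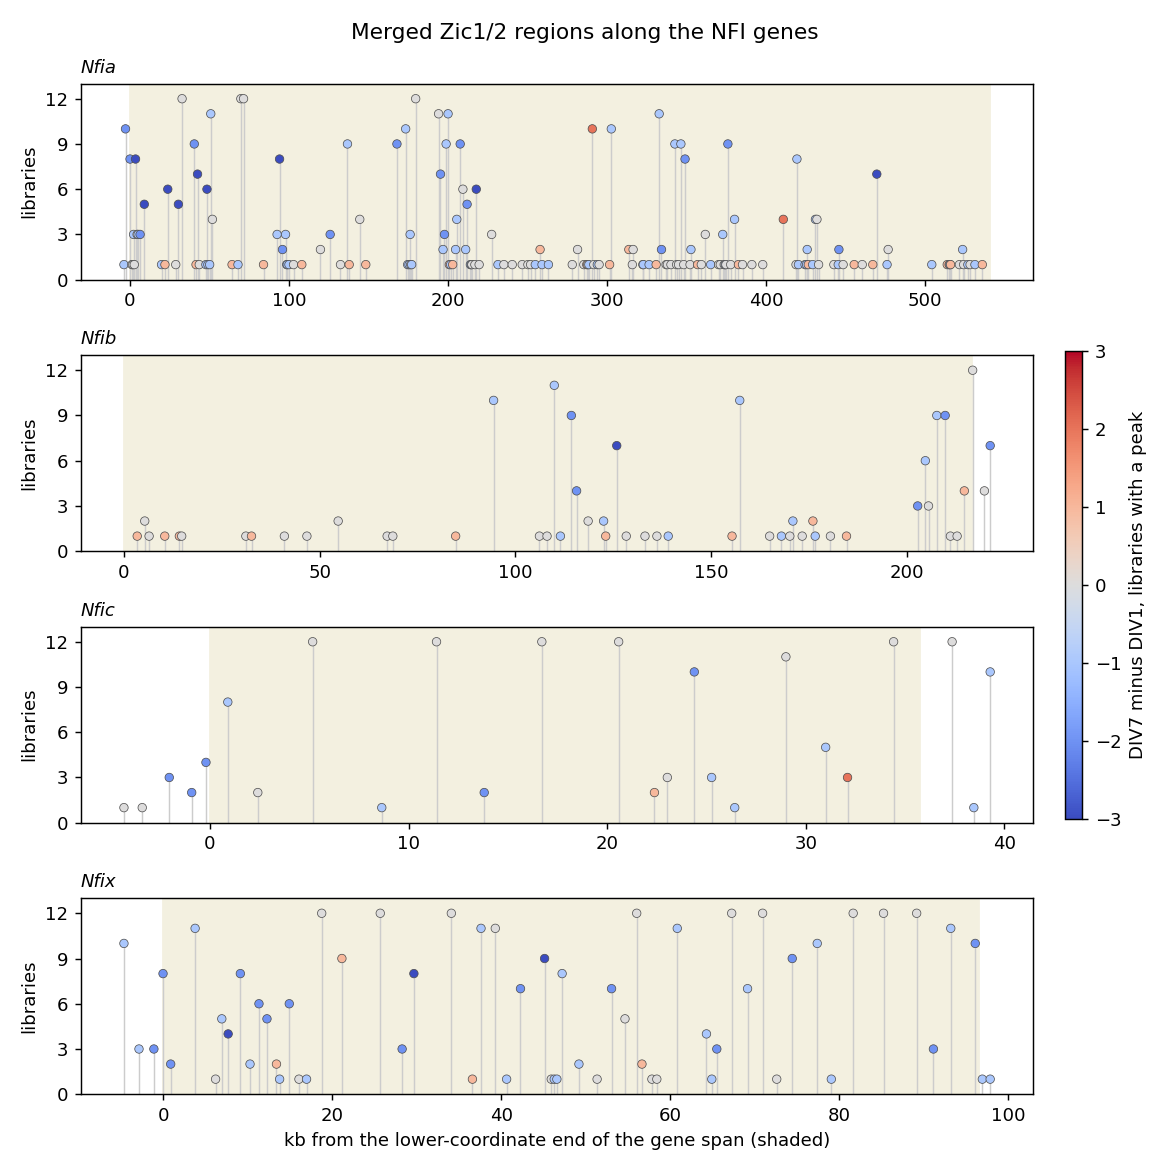
Merged Zic1/2 regions along the 4 NFI genes, by distance in kb from the lower-coordinate end of the gene span (shaded) and by the number of libraries with a peak; colour gives DIV7 minus DIV1 libraries with a peak. Recurrent regions are spaced closely at Nfic and Nfix, the first part of Nfib holds none, and blue regions (more DIV1 libraries) outnumber red ones at Nfia and Nfix.

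Regions reproduced within a day were fewer at DIV7 than at DIV1 at each gene. Regions called in all 3 libraries of a day numbered 28, 23, 16 and 6 at Nfia from DIV1 to DIV7, and 28, 19, 16 and 11 at Nfix. At Nfib they numbered 9, 6, 3 and 1, and at Nfic 11, 8, 8 and 7. Over the genome the same count went from 33557 at DIV1 to 17838 at DIV7. Regions called in any library of a day went the other way over the genome, from 106392 at DIV1 to 127663 at DIV7, while from DIV1 to DIV7 they went from 94 to 51 at Nfia, 51 to 34 at Nfix, 21 to 15 at Nfic and 21 to 22 at Nfib.

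Presence was tested against day in the 82 NFI regions called in 3 to 9 libraries (exact trend test, two-sided). At an unadjusted p under 0.05, 12 were called more often early and none more often late, against 11.1% and 1.87% of the 52519 regions tested. No NFI region passed after adjustment, and neither did any other region (0% called), the lowest adjusted p being 0.134. Of the 12, 9 lay in Nfia, 2 in Nfix, 1 in Nfib and none in Nfic. The count was 7 without DIV7 replicate 1, 3 without the 3 libraries with the fewest reads, and 19 to 21 without DIV3 replicate 2 or 3 or DIV5 replicate 1 or 2. Of all the 82, 34 of 42 at Nfia had a peak in more DIV1 than DIV7 libraries and 1 had the reverse. At Nfix 20 of 22 and 1 stood so, at Nfib 8 of 11 and 1, and at Nfic 5 of 7 and 1. Over the 52519 regions tested the shares were 51.19% and 28.75%.

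Of the 9 Nfia regions 6 lay within 100 kb of the lower-coordinate end of the gene or outside that end, as did 16 of the 42 Nfia regions tested and 39 of all 172. The one at chr4:97608147-97609284 was called in all 3 DIV1 libraries, 2 DIV3 libraries and none later (exact trend p = 0.00758). The one at chr4:97620332-97621154 was called in all libraries of DIV1 and DIV3, 1 of DIV5 and none of DIV7, with the same p, and held 36 to 39 reads at DIV1. The one at chr4:97671717-97672852 was called in all of DIV1 and DIV3, 2 of DIV5 and none of DIV7 (exact trend p = 0.0121). At Nfix a region at chr8:84749190-84750509 was called in all 9 libraries up to DIV5 and in no DIV7 library (exact trend p = 0.00909). A region at chr8:84733510-84735243 was called in all of DIV1 and DIV3, 2 of DIV5 and none of DIV7 (exact trend p = 0.0121), and one at chr8:84711954-84712815 in all 3 of DIV1 and 1 of DIV5 (exact trend p = 0.0606). At Nfib the region at chr4:82415631-82416509 was called in 3, 2, 2 and 0 libraries from DIV1 to DIV7 (exact trend p = 0.0379). The Nfib regions at chr4:82403958-82404995 and chr4:82499103-82500850 were each called in 3, 3, 2 and 1 (exact trend p = 0.0909). At Nfic the regions with the smallest p were chr10:81395721-81396259, across the lower-coordinate end of the gene (exact trend p = 0.194), and chr10:81393886-81394397 and chr10:81421092-81421804 (exact trend p = 0.255 each). The region at chr10:81393886-81394397 lies 1794 bases outside that end, within the protein-coding gene Smim24.

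Signal strength was compared as a percentile, the rank of a peak's maximum signal among all peaks of its library. Where a library had several peaks in a merged region, the highest was taken, and wide regions can hold several. The maximum is a whole number, at least 2 in each library, with library medians from 4 to 7. Many peaks thus tie, and a small step in height can move a percentile by many points. In DIV7 replicate 1 a maximum of 6 stood at the 80.4th percentile and 7 at the 88.9th. Low percentiles rest on heights near the lowest possible. The strongest steady NFI region was in Nfic, at chr10:81410672-81415127, which also overlaps the lncRNA gene Gm16104. Its percentiles were 89.6, 98.1 and 91.4 at DIV1, 84.0, 92.8 and 93.4 at DIV3, 85.8, 88.0 and 92.7 at DIV5, and 93.7, 94.0 and 95.6 at DIV7. It was thus among the stronger peaks of all 12 libraries. The other Nfic regions of high rank were chr10:81399265-81403457, with a mean percentile of 89.5 ± 2.44 at DIV1 and 88.4 at DIV7, chr10:81429138-81432082, across the upper-coordinate end of the gene, with 82.7 ± 3.94 and 88.9, and chr10:81432594-81434517, 675 bases outside that end, with 87.9 ± 5.48 and 86.1 (SD, n = 3). Between them lay regions with lower DIV7 values, chr10:81405589-81409605 with 89.2 at DIV1 and 69 at DIV7, and chr10:81415215-81418320 with 92.6 and 60.5, where DIV7 replicate 1 stood at 12.9 and the other DIV7 libraries at 79.5 and 89.2. Neither passed (limma on normal scores of the ranks over 12276 regions shared by all libraries, adjusted p = 0.319 and 0.252).

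At Nfia, 1 shared region lost rank over the week. At chr4:97648757-97650550, 70691 bases inside the gene from its lower-coordinate end, the percentiles were 89.6, 94.0 and 91.4 at DIV1, 88.0, 89.1 and 93.4 at DIV3, 89.8, 74.8 and 81.8 at DIV5, and 39.6, 71.7 and 25.5 at DIV7. Every DIV7 library lay below every earlier one. The reads behind these values were 117 to 139 at DIV1 and 18, 50 and 9 at DIV7. The trend was -0.29 ± 0.0556 normal score units per day (adjusted p = 0.017, limma), and DIV7 stood below DIV1 by -1.72 ± 0.332 units (limma, adjusted p = 0.019). Of the 12276 shared regions 1.3% were called lower and 0.741% higher over the week, and 1.16% and 0.733% between DIV7 and DIV1. At DIV3 against DIV1 0.0407% were called lower and 0.285% higher. None of the 20 NFI regions was called (limma), 2 having an unadjusted p under 0.05. The DIV7 call of the Nfia region was lost without DIV1 replicate 2, DIV1 replicate 3 or DIV7 replicate 3, while its trend passed with any 1 library left out. The trend was -0.293 in the 51-base and -0.39 in the 50-base libraries alone (limma, adjusted p = 0.142 and 0.354). The trend call was lost with reads in peaks as a covariate, where the trend was -0.273 (limma, adjusted p = 0.234), and without the 3 libraries with the fewest reads, where it was -0.244 (limma, adjusted p = 0.148).

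The region next to it, chr4:97647215-97648725, had percentiles from 88.1 to 93.7 in all DIV1 and DIV3 libraries, 97.5, 62.9 and 88.5 at DIV5, and 0.842, 79.5 and 82.6 at DIV7. Its trend was -0.26 ± 0.109 and did not pass (limma, adjusted p = 0.238). The other 2 shared Nfia regions were chr4:97609707-97612345, with a mean percentile of 72.6 at DIV1 and 44.2 at DIV7, and chr4:97757208-97758434, with 72.7 and 29.2. All 4 shared Nfia regions had a negative trend, and over the 20 NFI regions 11 were negative, against 50.02% of all shared regions. Their median was -0.05 units per day against -4.58e-05 over all shared regions. It was -0.0122 without DIV1 replicate 2, -0.11 without DIV7 replicate 3, -0.156 with total signal, 0.021 with read length as a term and 0.0101 over the 8 regions shared by the 40000 strongest peaks. None of the 20 was called higher (limma), against 0.741% of all shared regions.

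One Nfia region went the other way. It is named here because its values were seen, not by the naming rule. At chr4:97868083-97869617, inside Nfia and across an end of the lncRNA gene Gm19417, a peak was called in 1 of 3 DIV1 libraries, at the 20.4th percentile with 13 reads, and in all 9 later libraries. Percentiles were 72.8, 75.3 and 39.2 at DIV3, 85.8, 74.8 and 81.8 at DIV5, and 65.0, 79.5 and 71 at DIV7. Its DIV7 libraries held 33, 89 and 59 reads. The cause of the rise was not tested. With regions called in at least 10 libraries and a missing peak set to the lowest rank, its trend was 0.33 ± 0.069 normal score units per day (limma over 21630 regions, adjusted p = 0.0141). In that fit 1.72% of all regions were called higher and 2.76% lower, and of the 42 NFI regions 1 was called higher and 1 lower. In alternatives added after the data were seen, the trend passed in all 12 fits without 1 library (0.281 to 0.36). It did not pass with reads in peaks as a covariate (0.35, limma adjusted p = 0.151) or without the 3 libraries with the fewest reads (0.367, limma adjusted p = 0.0628).

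At Nfix the strongest region was chr8:84792387-84795422. Its percentiles were 96.0, 97.2 and 98.8 at DIV1, 91.2, 92.8 and 93.4 at DIV3, 89.8, 88.0 and 70.5 at DIV5, and 80.4, 96.9 and 51.5 at DIV7. DIV7 replicate 2 lay within the DIV1 range and the other two DIV7 libraries below it. The trend, -0.22 ± 0.0733 units per day, missed the threshold (limma, adjusted p = 0.123) and passed without DIV7 replicate 2 (-0.306, limma adjusted p = 0.0261). It was -0.403 in the 51-base and -0.00962 in the 50-base libraries alone. A nearby region, chr8:84788728-84791237, was low at DIV5, at 17.6, 22.3 and 5.90, against 70.0 to 91.5 at DIV1 and 39.6, 71.7 and 71 at DIV7, with no trend that passed (limma, adjusted p = 0.419). The region at chr8:84737276-84740345 had a mean percentile of 86.0 ± 3.65 at DIV1, 76.0 ± 3.61 at DIV3, 87.0 ± 3.81 at DIV5, then 89.2 at DIV7 (SD, n = 3), every DIV3 library lying below every DIV1 library. The regions at chr8:84774429-84776896 and chr8:84784115-84788661 had means of 87.1 and 81.0 at DIV1 and 75.7 and 71.2 at DIV7. In the second of these DIV7 replicate 1 stood at 39.6 and the other DIV7 libraries at 84.8 and 89.2, within and above the DIV1 values of 76.5, 88.1 and 78.4. In the first they were 65.0, 79.5 and 82.6. A region across the upper-coordinate end of the gene, chr8:84800191-84801488, was called in all libraries up to DIV5 and in 1 of 3 at DIV7.

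At Nfib the 1 region shared by all libraries lay across the upper-coordinate end of the gene, at chr4:82505197-82508803, and reached into the lncRNA gene Gm11266. Its mean percentile was 85.3 ± 6.59 at DIV1, 82.1 ± 8.17 at DIV3, 85.7 ± 2.93 at DIV5, then 89.2 ± 7.91 at DIV7 (SD, n = 3). Those days overlapped, and the trend was 0.08 units per day (limma, adjusted p = 0.593).

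**Figure D4:**
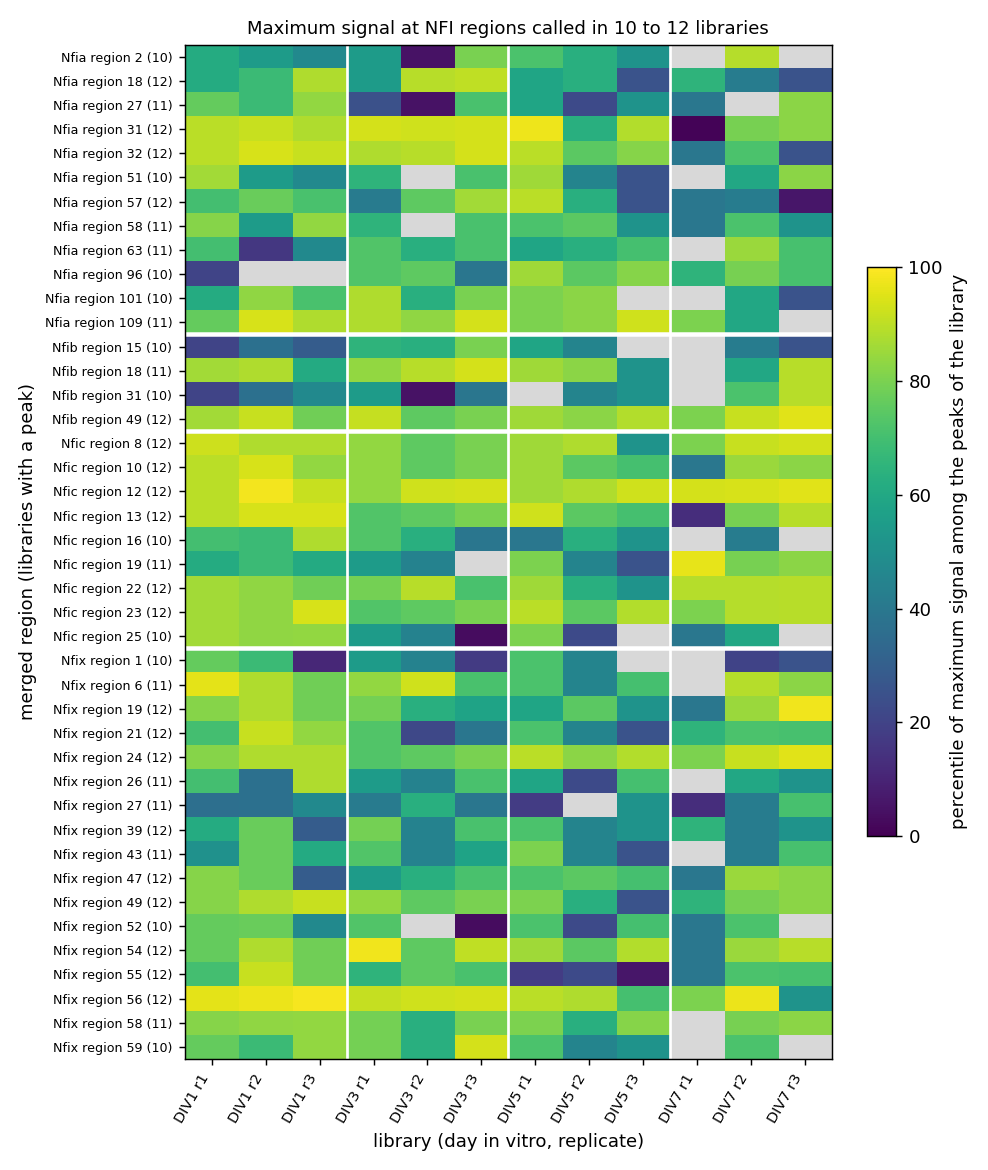
Percentile of maximum signal within each library (colour, 0 to 100; grey, no peak) at the 42 NFI regions called in 10 to 12 libraries (rows, number of libraries in brackets) in each of the 12 libraries (columns, by day and replicate). Nfia region 32 goes from 91.7 at DIV1 to 45.6 at DIV7 on average, Nfia region 96 has a peak in 1 DIV1 library and in all 9 later ones, Nfic region 12 stays high throughout, and DIV7 replicate 1 holds the most grey cells.

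Typical NFI peaks did not follow the same course as their number. The median percentile of the Nfia peaks of a library averaged 46.3 at DIV1, 41.7 at DIV3, 36.8 at DIV5, then 44.4 at DIV7. That of Nfic peaks averaged 54.6 ± 7.03 at DIV1 and 69.2 ± 11.9 at DIV7, and that of Nfib peaks 40.3 ± 6.25 and 55.8 ± 7.93 (SD, n = 3). For Nfix peaks it stayed between 41.7 and 51. The strongest Nfia peak of a library stood at 92.6 ± 1.33 at DIV1 and 83.9 ± 4.32 at DIV7, and no DIV7 library had an Nfia peak above the 90th percentile. These percentiles were not tested.

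Genes linked to NFI factors were examined in the same fit. The list of 13 holds genes tied to NFI proteins in granule neurons (Gabra6, Cntn2, Cdh2, Efnb1, Etv1, Grin2c, Tiam1, Wnt7a, Itsn1) or in neural progenitors (Ezh2, Hes1, Sox9, Gfap). All 13 passed the filter on low values. Over the week 1 of the 13 was called lower and none higher, with a median trend of -0.02 log2 per day. Of all 14692 genes tested 2.97% were called lower and 0.953% higher. Cntn2, a cell adhesion molecule of growing granule neuron axons, held 8, 13 and 10 peaks at DIV1 and 3, 8 and 3 at DIV7, and its trend was -0.19 ± 0.0491 log2 per day (limma, adjusted p = 0.0403). With reads in peaks as a covariate the Cntn2 trend was -0.123 (limma, adjusted p = 0.665), and it passed in 4 of the 12 fits that left out 1 library (adjusted p 0.014 to 0.113).

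Gabra6, the GABA-A receptor subunit of mature granule neurons, gained peaks between DIV1 and DIV3. It held no peak in any DIV1 library, then 2, 3 and 3 peaks at DIV3, 3, 4 and 1 at DIV5, and 2 in each DIV7 library. It was the 1 listed gene called higher at DIV7 than at DIV1 (limma, adjusted p = 0.0136) and at DIV3 than at DIV1 (limma, adjusted p = 0.0351). Of all genes tested 0.742% and 0.0545% were called higher in these comparisons. The DIV3 call held with reads in peaks as a covariate (limma, adjusted p = 0.0409) and in 7 of 12 fits without 1 library. Leaving out a DIV5 or DIV7 library cannot move this difference, only its SE. Without any 1 DIV1 library the call was lost (limma, adjusted p 0.129 to 0.163). Among the DIV3 libraries it held without replicate 1 alone (limma, adjusted p = 0.0456, against 0.188 and 0.106). The 3 libraries with the fewest reads are of DIV5 and DIV7, and without them the difference was the same, 2.21 log2. The DIV7 call held in 10 of the 12 fits without 1 library and was lost with the covariate (limma, adjusted p = 0.193). Without those 3 libraries, which leaves 1 DIV7 library, the DIV7 difference was 1.84 log2. With read length as a term both calls were lost (limma, adjusted p = 0.232 at DIV3 and 0.0649 at DIV7), and so they were with the 40000 strongest peaks (limma, adjusted p = 0.411 and 0.474). With a pseudocount of 0.5 the DIV3 call was lost (limma, adjusted p = 0.0566). The Gabra6 day trend was 0.28 ± 0.0871 log2 per day and did not pass (limma, adjusted p = 0.0796), nor did it in any of the 12 fits without 1 library. It was 0.312 in the 51-base and -0.0923 in the 50-base libraries alone. None of the 13 was called lower in those comparisons. Gfap, the astrocyte filament protein, had 2 peaks in each DIV1 library and 5, 7 and 3 at DIV7, and its trend of 0.16 ± 0.0588 log2 per day did not pass (limma, adjusted p = 0.143).

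Other genes shared the NFI profiles over the 12 libraries. The measure was Pearson's r of log2(peaks per 10000 + 0.1) over 12 libraries, among at most 2616 genes averaging at least 5 peaks, and it carries no test because all points share the depth of their library. Most like Nfia were Barhl1 (r = 0.956), Plekha6 (0.947) and Dock1 (0.946). Most like Nfix were Zmiz1 (0.954), Celf4 (0.953) and Tcte1 (0.949), and most like Nfib were Jazf1 (0.969), Tldc2 (0.941) and Tcf20 (0.939). For Nfic the highest values were lower, 0.844 with Zfp618, 0.779 with Reep1 and 0.773 with Fat1. Among the NFI genes r was 0.832 between Nfib and Nfix, 0.825 between Nfia and Nfix and 0.769 between Nfia and Nfib. Between Nfic and Nfia, Nfib and Nfix it was 0.236, -0.0058 and 0.310.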

How the data were processed

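Zic1/2 CUT&RUN was measured in 12 libraries, 3 for each of 4 days. The authors deposited 1 peak list per library, in the form of SEACR stringent output, with the total signal (summed coverage) and the maximum signal of each peak. Per the submitters' processing notes the build was mm10 and the tools included SEACR 1.3, STAR 2.7.2b, Trimmomatic 0.38, FastQC, DESeq2 1.36.0, bedtools 2.25.0 and MACS2 2.1, with no step given for each. The sources used here state no control, peak threshold or duplicate removal. The deposited signal was not scaled to depth. All totals were multiples of 50 or 51, which gave reads per peak. The maximum never passed 100 or 102, so it saturates.

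Peaks of the 19 autosomes and of X and Y were merged where they overlapped by 1 base. Gene spans came from RefSeq GRCm38.p6 by symbol (all 4 matched), which gave no exons. limma 3.58.1 in R 4.3.3 fitted log2(peaks per 10000 + 0.1) for genes averaging at least 1 peak, and normal scores of ranks of maximum signal at regions shared by all libraries. Folds are on that pseudocount scale and understate changes of low genes. Presence used an exact conditional trend test. Adjusted p-values are Benjamini-Hochberg over each whole table, threshold 0.05. Code was tested on simulated data. Replicate spread may include technical error. Named regions per gene are the 4 shared regions of highest mean percentile, the 2 with the smallest trend p, those called in at least 10 libraries within 1 kb of a gene end, and the 3 with the smallest presence p. The members and lists were chosen with earlier results of these data known. Alternatives covered pseudocount, filter, flank, measure, peak threshold, depth, read length, replicate block and left-out libraries.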

Additional observations from a re-analysis of the deposited data

How the results depend on the processing

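The number of NFI genes called over the week was 1, and it was 2 with bases covered in place of peaks, 0 with reads in peaks as a covariate, 0 in the 50-base libraries alone, 0 without the 3 libraries with the fewest reads and 1 to 2 with each library left out in turn. For DIV7 against DIV1 the count was 1, and it was 0 with the covariate, 0 without those 3 libraries, 0 with the 40000 strongest peaks per library (the last pair chosen after seeing the data) and 0 to 3 with each library left out. Of the 20 shared regions 1 was called over the week, against 3 with total signal, 2 of 42 with regions in at least 10 libraries (1 rise and 1 fall), 0 of 8 with the 40000 strongest peaks, 0 with the covariate, 0 in the 50-base and 0 in the 51-base libraries alone, 0 without the 3 libraries with the fewest reads and 1 to 2 with each left out. For DIV7 against DIV1 1 shared region was called, against 4 with total signal (chosen after seeing the data), 0 with the covariate, 0 with read length as a term and 0 to 1 with each library left out. Calls over all 12276 shared regions also rose with total signal, from 251 to 923 over the week and from 232 to 876 between DIV7 and DIV1. Calls over all 14692 genes rose with bases covered, from 576 to 853 over the week. The 12 regions with an unadjusted presence p under 0.05 were 7 with the maximum-signal part of each peak, 3 without the 3 libraries with the fewest reads and 7 to 21 with each left out. Counts for DIV3 against DIV1 stayed at 0 in all settings run.

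The Nfia trend kept its sign in all settings run and lost its call with the 40000 strongest peaks (-0.195 log2 per day), the covariate (-0.0993), the 50-base libraries (-0.232) and without the 3 libraries with the fewest reads (-0.0973). It ran from -0.229 to -0.172 with each library left out and passed in all 12 of those fits. Its DIV7 difference of -1.26 lost the call without DIV1 replicate 1 (-1.22), DIV1 replicate 3 (-1.27) or DIV7 replicate 1 (-1.11). The call was also lost with the covariate (-0.673) and with the 40000 strongest peaks (-1.18). Without the 3 libraries with the fewest reads, which leaves 1 DIV7 library, the difference was -0.696. Nfix passed with bases covered (-0.187) and with the 40000 strongest peaks (-0.187), and ran from -0.177 to -0.111 with each library left out; it was -0.025 with the covariate and -0.0683 without the 3 libraries with the fewest reads. The Nfib trend turned to 0.0294 with the covariate and ran from -0.171 to -0.0647 with each library left out. The Nfib DIV7 difference turned to 0.2 with the covariate. It was 0.0529 without the 3 libraries with the fewest reads, which leaves 1 DIV7 library. The Nfic trend turned to 0.0193 with the 40000 strongest peaks and 0.0332 in the 50-base libraries, and its DIV7 difference to 0.0659 with the 40000 strongest peaks. For these shifts the cause was not tested. The settings with left-out libraries, 1 read length or the 40000 strongest peaks also hold fewer libraries or peaks.

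Whether libraries with the same replicate number share a culture is not stated in the labels, and the data did not settle it. In deviations from the daily means, 2 of 18 same-number pairs correlated above 0.1. Their r ran from -0.148 to 0.188, against -0.146 to 0.192 for other pairs, and 6 of 12 libraries correlated best with one of their own number. With the replicate block the Nfia trend was -0.203 (limma, adjusted p = 0.0158), the counts of NFI genes and shared regions called were both 1, and among the listed genes the Cntn2 trend and the Gabra6 difference at DIV3 were no longer called (limma, adjusted p = 0.0501 and 0.0706). The exact presence test has no block. Depth limits what can be said of weak peaks, whose absence in a library with few reads does not show absence of binding.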
